A study of Mus musculus with 4 samples.

Results

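The brush-border digestive enzymes described here are 9 genes of the 32285 measured: Lct, Sis, Mgam, Treh, Anpep, Enpep, Dpp4, Ace and Alpi. They were taken by symbol, and all 9 were found. Single cells of mouse small-intestinal crypts were sequenced in 4 libraries, 2 labelled 0D and 2 labelled 2D. Values given in sets of 4 follow the order 0D-1, then 0D-2, then 2D-1, then 2D-2. The series compares mice before and after sleep deprivation, and 0D and 2D are read as those states, although the meaning of D is not written out in the labels. Strain, age, sex and genotype are not given in the labels. No label says that the 2 libraries of a group came from separate animals, so the p-values cover the spread among these 4 libraries alone, and that spread may be technical.

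The brush border is the carpet of microvilli on the lumenal face of absorptive enterocytes, and the enzymes anchored in it carry out the last step of digestion before uptake. Disaccharidases split sugars, peptidases trim small peptides, and alkaline phosphatase removes phosphate groups. Enterocytes acquire these enzymes as they leave the crypt, under transcription factors of the CDX, HNF1, HNF4 and GATA families, and several enzymes differ in amount between the proximal and the distal small intestine.

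The stretches upstream of 3 members are shown first, since Lct and Alpi were close to restricted to enterocytes, while Sis was shared with enteroendocrine cells. Each is the 250 bases before the RefSeq gene start (build GRCm38.p6), given 5′ to 3′ on the gene's strand. The windows are Lct at chr1:128328319-128328568, Sis at chr3:72967864-72968113 and Alpi at chr1:87101607-87101856, all on the minus strand. Capitals mark, on either strand, TTTAT as a short letter pattern of CDX sites. They also mark GTTAAT as one of HNF1 sites. Last, they mark CAAAGTCCA as one of HNF4 sites.
Lct: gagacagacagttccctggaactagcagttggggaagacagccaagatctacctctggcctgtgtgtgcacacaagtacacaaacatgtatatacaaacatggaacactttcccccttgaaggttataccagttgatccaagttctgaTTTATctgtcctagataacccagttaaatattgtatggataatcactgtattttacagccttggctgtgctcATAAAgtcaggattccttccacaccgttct
Sis: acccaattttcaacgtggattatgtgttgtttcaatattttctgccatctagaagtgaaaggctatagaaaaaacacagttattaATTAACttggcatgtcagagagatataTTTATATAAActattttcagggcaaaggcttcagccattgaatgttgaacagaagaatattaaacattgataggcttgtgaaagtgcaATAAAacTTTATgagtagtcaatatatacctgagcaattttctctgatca
Alpi: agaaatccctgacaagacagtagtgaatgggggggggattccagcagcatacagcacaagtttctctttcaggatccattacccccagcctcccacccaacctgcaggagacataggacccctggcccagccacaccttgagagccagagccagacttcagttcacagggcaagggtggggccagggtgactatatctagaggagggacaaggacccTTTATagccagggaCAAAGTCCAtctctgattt
TTTAT was present in 7 of the 9 members' windows, and in 37.3% of all 32851 mouse windows of this length. It can overlap TATAAA, which 6 members and 12.4% of windows held. GTTAAT was found in 1 member, Sis, and in 6.43% of windows. CAAAGTCCA was found in Alpi and Treh, and in 0.384% of windows. AGATAA, a pattern of sites of the GATA family, was found in Lct, Dpp4 and Mgam, and in 9.99% of windows. Matches are descriptions of letters and not of bound sites.

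After filtering, 29731 cells were kept, 7025 to 7988 per library, with a median of 9247.5 to 13340.5 UMIs (unique molecular identifiers, which count captured transcripts) per cell. Pairs of libraries shared 13 to 16 kept cell barcodes. Cells were assigned to classes from fixed markers that include none of the 9 enzymes. For enterocytes these were 14 genes of lipid, sugar and retinoid handling such as Fabp1 and Apoa4. The gate score is the mean standardised expression of those markers, and a cell was called an enterocyte at a score of at least 0.5 that beat the next lineage by 0.25. The 3166 non-dividing enterocytes came to 1100, 949, 677 and 440 by library. They made up 14.5%, 13.3%, 9.64% and 5.51% of kept cells. Another 959 enterocytes carried a cell-division programme. Of all cells, 963 lay within 0.1 of the score cut, among them 354 cells gated as enterocytes, dividing or not. Over all non-dividing enterocytes, the 2D libraries held more of the summed Paneth markers, 3855 and 5599 CPM (counts per 1e6 UMIs of the cells summed) against 1615 and 1867 in 0D. They held less of the summed enterocyte gate markers, 8804 and 10570 CPM against 11500 and 11280, and their median gate scores were 1.19 and 1.21 against 1.31 and 1.35. In unsupervised (Leiden) clustering 2D-1 stood apart: a single cluster held 85.8% of its non-dividing enterocytes and 0.843% to 2.5% of those of the other libraries, most of which (63% to 65.5%) lay in another cluster that held 4.28% of those of 2D-1. The part of these differences in the results below was not tested. Over all non-dividing enterocytes, the 2D against 0D changes of Lct, Alpi, Mgam, Dpp4, Ace, Anpep and Enpep are also given without 2D-1. Those within gate-score ranges and in the other classes are not.

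The first question was where in the crypt epithelium each enzyme is expressed. All 9 were higher in non-dividing enterocytes than in every other gated class, with 1 exception, Dpp4 in enteroendocrine cells. Lct was close to restricted to enterocytes, Sis was also abundant in enteroendocrine cells, and Mgam and Dpp4 were present in nearly all classes. Levels are CPM, from the summed UMIs of a class within a library. Cells that met no gate are left out of these class comparisons, and held Sis at 32.6 to 71.0 CPM, Enpep at 11.4 to 41.7 and Alpi at 3.51 to 6.13. Levels of different genes are not compared, since capture differs between transcripts.

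**Figure D1:**
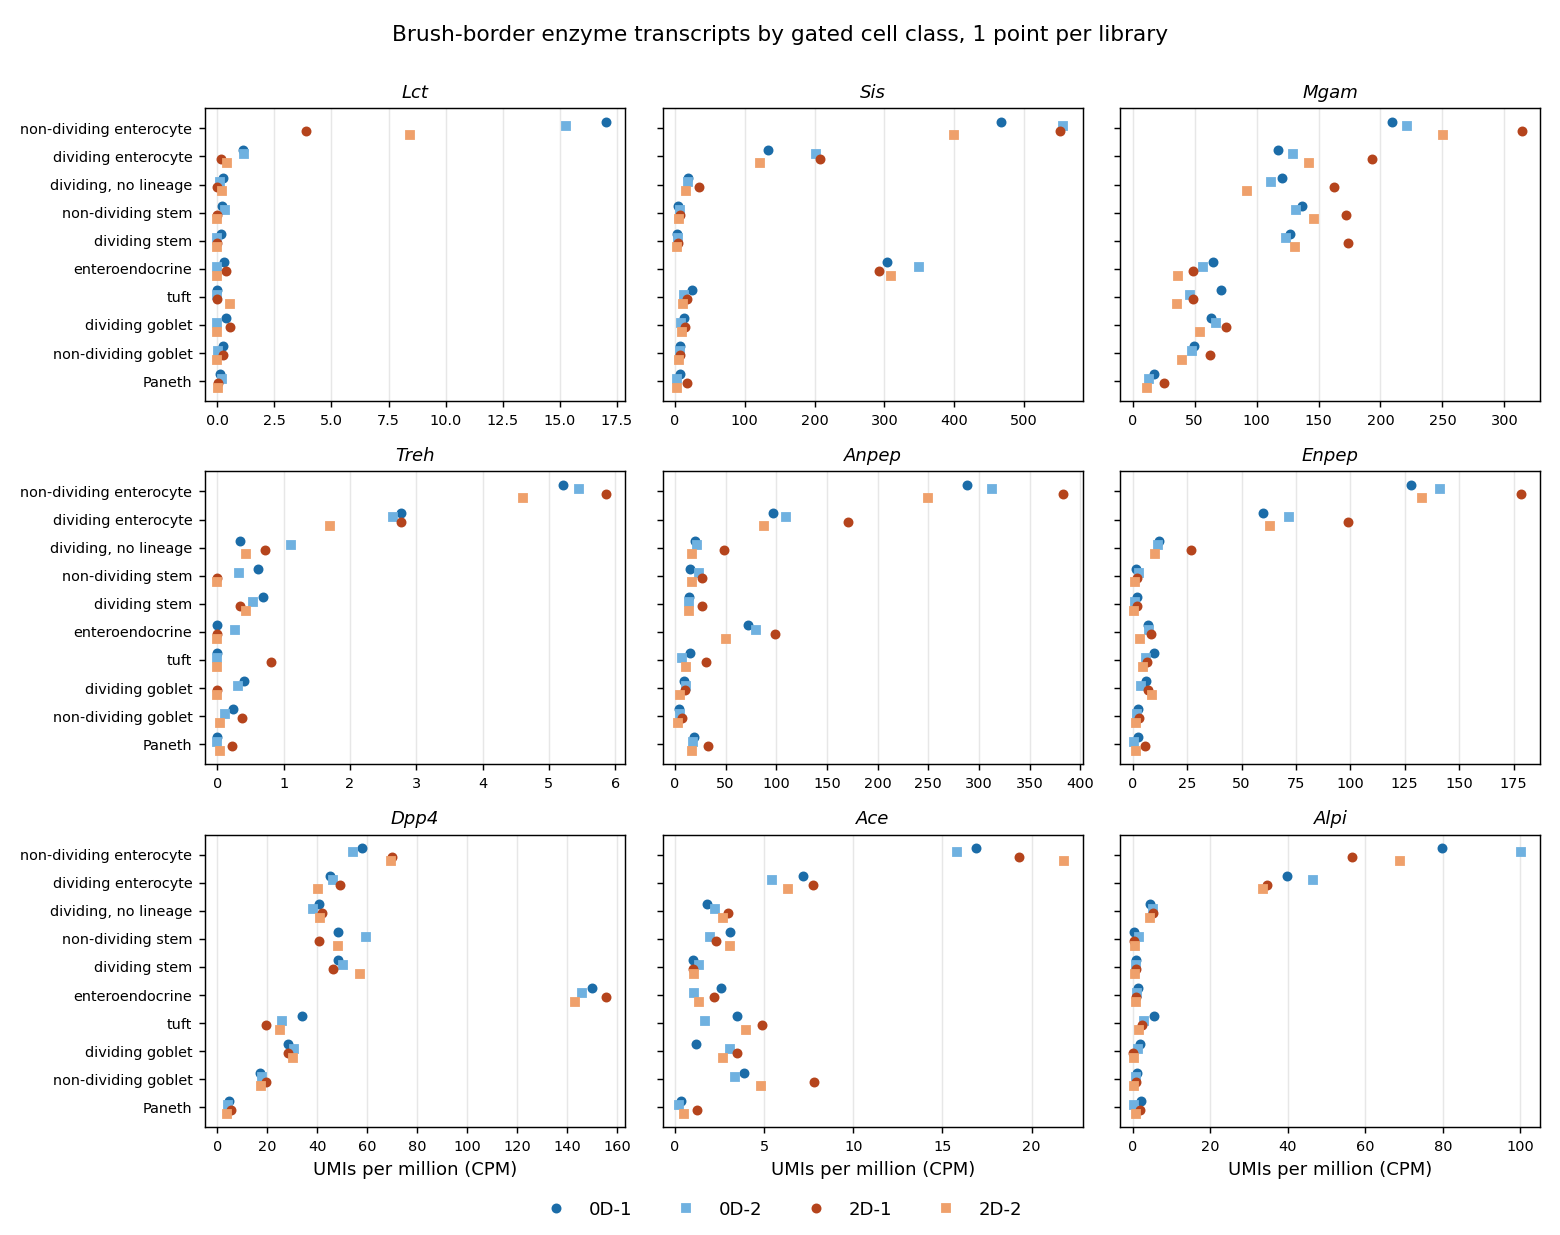
CPM (horizontal axis) of the 9 enzymes in 10 gated classes (vertical axis), with 1 point per library, blue for 0D and orange for 2D, and a linear scale of its own in each panel. The points for non-dividing enterocytes lie furthest right in every panel except that of Dpp4, where enteroendocrine cells lie between 142.9 and 155.5 CPM.

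Among the disaccharidases, Lct, which encodes lactase, stood at 17.0, 15.3, 3.90 and 8.44 CPM in non-dividing enterocytes. The highest library of any other class was at 1.18 CPM, in dividing enterocytes. Non-dividing enterocytes held 91.6% of all 736 Lct UMIs. Lct UMIs were seen in 13.7%, 12.3%, 4.73% and 7.50% of these cells, against 0.0493%, 0.0494%, 0.226% and 0% of non-dividing goblet cells, where the count of 0 in 2D-2 allows a share of up to 0.117%. Such limits, set at 3 counts, cover counting error only. With every cell thinned to 3000 UMIs the enterocyte shares were 4.56%, 4.42%, 1.24% and 3.17%. The goblet share, given without thinning, was far below the enterocyte share in each library, at median depths of 14350.5 UMIs in enterocytes and 10320 in goblet cells. Whether the Lct UMIs of goblet cells came from free RNA or another source was not tested.

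Sis, which encodes sucrase-isomaltase, stood at 467, 557, 552 and 399 CPM in non-dividing enterocytes and at 134, 201, 209 and 122 CPM in dividing ones. Enteroendocrine cells, which secrete gut hormones, came between these at 304, 350, 293 and 310 CPM. The 3 sets of 4 libraries did not overlap. Every other gated class lay at or below 34.5 CPM, and non-dividing goblet cells at 5.09 to 7.87. Mgam, which encodes maltase-glucoamylase, was spread more widely. It stood at 209, 221, 314 and 250 CPM in non-dividing enterocytes and at 132 to 172.5 CPM in non-dividing stem cells. Paneth cells, at 11.8 to 25 CPM, were its lowest class by CPM, an order that depends on the scaling (see the class contrasts below). Stem cells, dividing enterocytes and dividing cells of no lineage overlapped in Mgam between neighbours in rank. Treh, which encodes trehalase, was sparse, at 4.60 to 5.86 CPM in non-dividing enterocytes, 1.70 to 2.77 in dividing ones and at most 1.11 in the other gated classes.

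Among the peptidases, Anpep (aminopeptidase N) stood at 288, 313, 383 and 250 CPM in non-dividing enterocytes, above 88.2 to 170.9 in dividing ones. By CPM, enteroendocrine cells followed at 50.2 to 99.1, overlapping dividing enterocytes. Paneth cells lay at 16.8 to 32.4 CPM, and their order against enteroendocrine cells depends on the scaling (see the class contrasts below). Enpep (glutamyl aminopeptidase) stood at 128, 141, 178 and 133 CPM in non-dividing enterocytes and at 59.9 to 98.9 in dividing ones, and did not exceed 26.8 CPM in the other gated classes. Both aminopeptidases thus had their highest 4 libraries in non-dividing enterocytes. Ace, the angiotensin-converting dipeptidase, was at 16.9, 15.8, 19.3 and 21.8 CPM there, and its next classes, dividing enterocytes at 5.45 to 7.73 and non-dividing goblet cells at 3.35 to 7.78, overlapped.

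Dpp4, which encodes the dipeptidyl peptidase that inactivates the hormones GLP-1 and GIP, had another order. Enteroendocrine cells were highest at 150, 146, 156 and 143 CPM. Non-dividing enterocytes held 57.8, 54.4, 69.9 and 69.4 CPM and overlapped dividing stem cells at 46.3 to 57.2. Paneth cells were lowest at 3.87 to 5.35. Only 22% of all Dpp4 UMIs came from non-dividing enterocytes and 16.5% from enteroendocrine cells. Alpi, which encodes intestinal alkaline phosphatase, was again absorptive, at 79.8, 100.2, 56.5 and 69.1 CPM in non-dividing and 33.5 to 46.4 in dividing enterocytes, with at most 5.55 CPM in the other gated classes. The related genes Akp3 and Alppl2, neighbours of Alpi on chromosome 1, were at 0.145 to 0.942 and 5.06 to 10.7 CPM in non-dividing enterocytes. How reads that match several of these genes were counted is not stated in the labels, so values of Alpi carry that uncertainty.

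Class contrasts were tested with edgeR's quasi-likelihood test with library as a block. Of 81 contrasts (9 genes against 9 classes), 81 passed an adjusted p of 0.05, 80 higher in non-dividing enterocytes and 1 lower. Of all 13298 genes, 30.1% were called higher in non-dividing than in dividing enterocytes, 37.4% and 35.2% against dividing and non-dividing stem cells, and 33.2% against dividing cells of no lineage. The shares were 29.6% and 35% against dividing and non-dividing goblet cells, 36.3% against Paneth, 39% against enteroendocrine and 34.5% against tuft cells, where 40% of genes were lower than in enteroendocrine cells. Such calls are thus common over all genes, and the enzymes are known members of the same absorptive programme as the gate's markers. Against dividing enterocytes, the log2 difference was 4.12 for Lct, 1.82 ± 0.18 (SE) for Sis, 1.67 ± 0.10 for Anpep, 1.65 ± 0.14 for Ace, 1.29 for Treh, 1.24 for Enpep, 1.21 for Alpi, 1.02 ± 0.11 for Mgam and 0.67 ± 0.09 for Dpp4. Against enteroendocrine cells, Sis was higher by 1.26 ± 0.18 and Dpp4 fell by 0.61 ± 0.08 (adjusted p = 4.39e-09). The composition scaling (TMM) moves such differences. With library totals in its place they were 0.62 for Sis and -1.25 for Dpp4. The median over all genes moved from -0.03 to -0.67. Against Paneth cells that median moved from -0.04 to 1.63. With TMM and 1 library left out, Mgam was higher than in Paneth cells by 2.04 to 2.33. Against enteroendocrine cells it was higher by 2.695 to 3.10. For Anpep these ranges were 2.13 to 2.19 and 2.56 to 2.73. By TMM both genes were thus lower in enteroendocrine than in Paneth cells, the reverse of their order in CPM.

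Enteroendocrine cells were then compared with non-dividing goblet cells, another secretory class, where 37.3% of all genes were called higher and 38.8% lower in the enteroendocrine cells. Of the 9 members 4 were called higher and 2 lower. Sis was higher by a log2 difference of 4.75 ± 0.22 (edgeR adjusted p = 1.94e-22), Anpep by 3.25 ± 0.14 (1.25e-23), Dpp4 by 2.27 ± 0.08 (1.19e-25) and Enpep by 0.81 ± 0.31 (0.0177). Ace was at -2.18 ± 0.24 (1.23e-10) and Mgam at -0.73 ± 0.13 (2.47e-06), but with library totals in place of TMM Mgam was at 0.041 and was not called (0.782). Lct, Alpi and Treh were not called. Enterocyte markers did not place these cells near the gate, as their median enterocyte score was -0.285.

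The 2612 enteroendocrine cells make different hormones, so each was assigned to the hormone or progenitor gene with the most UMIs, a split chosen after the class values were seen. Sis was highest in cells led by Cck (cholecystokinin), at 729.5, 930.1, 571.7 and 856.1 CPM, and by Gcg (proglucagon), at 684, 656, 665 and 768. The Gip-led cells followed at 377 to 437 CPM. Cells led by Tac1 (substance P) held 125 to 191 CPM, and cells led by Sst (somatostatin) had 0, 0, 0 and 11.98. The counts of 0 allow up to 54.6, 34.5 and 35.4 CPM in the first 3 libraries, and 2 UMIs make up the last value. Sis therefore varied among endocrine kinds from nearly undetected in Sst-led cells to above the pooled non-dividing enterocytes of the same library in Cck-led cells.

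Dpp4 had a different pattern among the same cells. It was at 207 to 306.5 CPM in Sst-led, 225 to 271 in Gip-led, 172 to 216 in Cck-led and 129 to 165 in Tac1-led cells, but at 12.3 to 20.5 in cells led by Neurog3, the endocrine progenitor factor. Those progenitor-like cells held less Dpp4 than any other kind shown in every library. Anpep was highest in Ghrl-led (ghrelin) cells, at 252, 260, 369 and 196 CPM, and reached 76.8 to 251.5 in Gcg-led cells, while Gip-led cells held 23.8 to 41.6. The kinds rest on 58 (Tph1) to 968 (Tac1) cells, and 16 Nts-led and 18 Pyy-led cells were too few to describe. Gcg-led cells numbered only 12, 20, 18 and 9 by library, and their Anpep value of 76.8 CPM in 2D-2 rests on 3 UMIs.

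**Figure D2:**
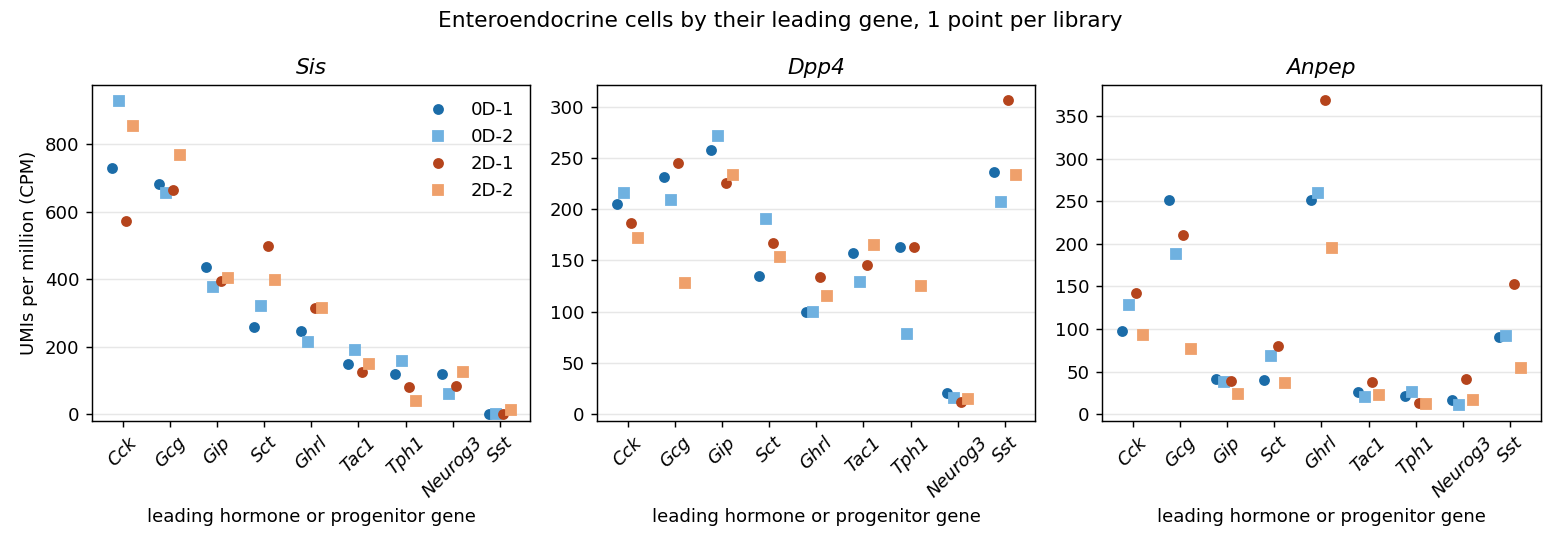
CPM (vertical axis) of Sis, Dpp4 and Anpep in enteroendocrine cells grouped by leading gene (horizontal axis, ordered by mean Sis), with 1 point per library. Sis falls from Cck-led to Sst-led cells, while Dpp4 is low only in the Neurog3-led cells among the kinds shown.

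The next question was whether the enzymes differed between 2D and 0D. In sums over all cells, Lct was at 2.92, 2.51, 0.588 and 0.655 CPM and Alpi at 17.3, 19.8, 11.2 and 6.94. These were lower in both 2D libraries, as was Treh, so 3 of 9 members did not overlap and were lower, against 38.2% of all genes. In such sums fewer cells of a type and less RNA per cell cannot be told apart, and enterocytes were fewer in 2D, so the comparison was repeated within enterocytes. There Lct still did not overlap between groups (16.1 ± 1.22 CPM in 0D and 6.17 ± 3.21 in 2D, SD, n = 2), nor did Alpi (90.0 ± 14.4 and 62.8 ± 8.91). Mgam (215 ± 8.69 and 282 ± 45.1), Dpp4 (56.1 ± 2.40 and 69.6 ± 0.376) and Ace (16.4 ± 0.761 and 20.5 ± 1.76) were higher in both 2D libraries. Sis, Anpep, Enpep and Treh overlapped.

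**Figure D3:**
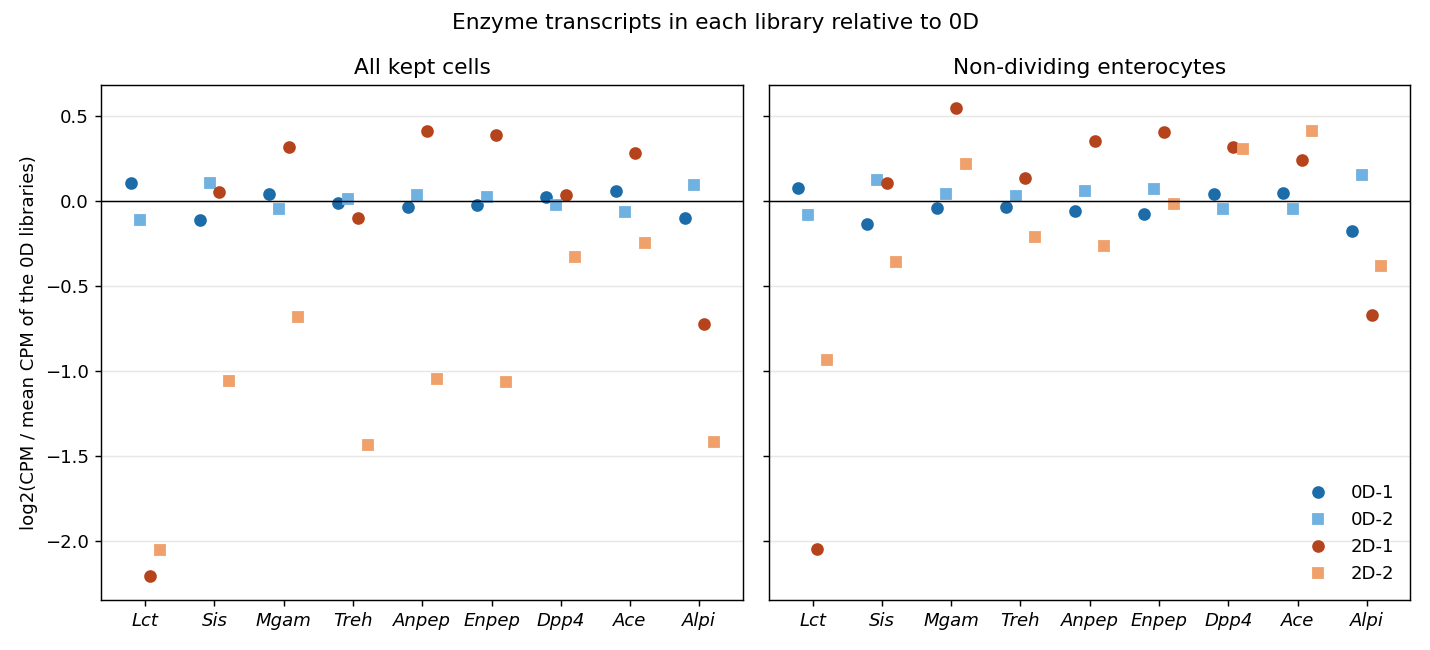
The log2 ratio of each library's CPM to the mean of the 0D libraries (vertical axis) for the 9 enzymes (horizontal axis), in all cells on the left and in non-dividing enterocytes on the right. In all cells 2D-2 lies below 2D-1 for 8 enzymes (Lct is the exception), and within enterocytes the spread of the 2D pair narrows for Sis, Anpep and Enpep.

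None of the 9 passed the test in either setting. By edgeR's quasi-likelihood test with Benjamini-Hochberg adjustment over all genes, 0 of 9 were called in all cells, where 0% of 15454 genes were, and 0 of 9 in non-dividing enterocytes, where 0.147% of 11583 were. At an unadjusted p under 0.05 there were 2 of 9 in all cells (20.3% of genes) and 5 of 9 in non-dividing enterocytes (13.9%). Within enterocytes the log2 change was -1.52 ± 0.29 (SE) for Lct (adjusted p = 0.142), -0.54 ± 0.14 for Alpi (0.202), 0.38 ± 0.11 for Mgam (0.227), 0.30 ± 0.08 for Dpp4 (0.216) and 0.31 ± 0.12 for Ace (0.337). The groups of 5 members did not overlap, against 45.8% of genes. DESeq2 called Lct in enterocytes (adjusted p = 0.00557) and no other member, and called Lct and Alpi in all cells.

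Both 2D libraries weighed on these values. Without 2D-1 the Lct change was -0.94 (edgeR adjusted p = 0.00135) and without 2D-2 it was -2.07 (3.46e-25). Alpi was at -0.38 and -0.69. In these fits the lone 2D library is assumed to vary like the 0D pair, which alone gives the spread, and 500 and 1672 genes passed, so such passes are common there. Without 0D-1 the Lct change was -1.38 (adjusted p = 0.822) and without 0D-2 it was -1.57 (0.614). Mgam was at 0.22, Dpp4 at 0.30 and Ace at 0.41 without 2D-1, and none of them passed. Anpep was at -0.27 without 2D-1 and 0.33 without 2D-2, and Enpep at -0.02 and 0.39, so their sign depended on the library. With cells limited to 10% mitochondrial UMIs the Lct change was -2.21 and passed (adjusted p = 0.0317).

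All 9 members, Lct and Alpi among them, were higher at higher gate scores. The enterocytes were therefore divided by gate score, a split added after the data were seen. At a score of 1 to 2, Lct was at 6.97, 8.11, 1.36 and 3.95 CPM, lower in both 2D libraries (log2 -1.69 ± 0.40, edgeR adjusted p = 0.173). At 2 and above, it was at 53.9, 43.1, 23.4 and 56.8 CPM, and the groups overlapped (-0.46 ± 0.35, adjusted p = 0.589). The highest-scoring cells of 2D-2 thus held as much Lct as those of 0D, on 41 UMIs. Cells at this score numbered 237, 205, 101 and 63. Alpi likewise overlapped there, at 142, 177.5, 129 and 180 CPM.

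Mgam and Dpp4 had a wider difference in those cells than over all non-dividing enterocytes. Mgam was at 281, 310, 540 and 407 CPM at a score of 2 and above (0.72 ± 0.14, edgeR adjusted p = 0.0703), and Dpp4 at 84.7, 78.3, 130.6 and 180 (0.93 ± 0.18, adjusted p = 0.0734). Ace was at 31.6, 37.3, 55.0 and 87.2 (0.99 ± 0.24, adjusted p = 0.108). Enpep (188, 203, 292 and 209 CPM) and Treh (11.1, 10.99, 14.1 and 20.8) were less far apart. These 5 of 9 members were higher in both 2D libraries, against 20% of 9262 genes, and 0 of 9 passed, against 0.572%. The brush-border genes outside the 9 also lay mostly above 0 at this score, with a median log2 change of 1.37 for 11 other hydrolases, of which 2 passed, 0.49 for 10 transporters and 0.40 for 10 microvillus structure genes, of which 0 passed. Fabp6, the ileal bile acid-binding protein, moved beside them: 2.45, 1.83, 978 and 282 CPM in the same cells. Its part in the difference was not tested in this score range, and the comparison by Fabp6 follows.

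**Figure D4:**
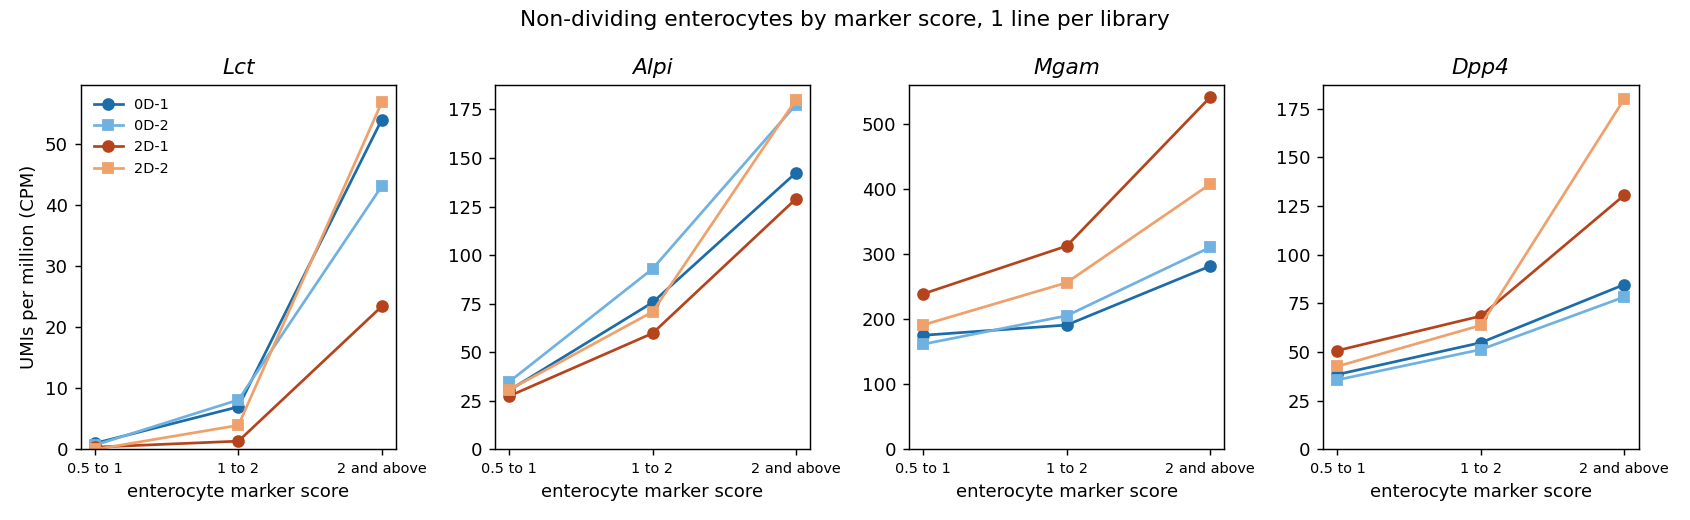
CPM (vertical axis) of Lct, Alpi, Mgam and Dpp4 in non-dividing enterocytes of 3 ranges of enterocyte marker score (horizontal axis), 1 line per library. Lct and Alpi of 2D-2 meet the 0D lines at the top score, while Mgam and Dpp4 of both 2D libraries lie above them there.

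Fabp6 marks enterocytes of the ileum, and the labels name small intestine without its region. Of the 3166 non-dividing enterocytes, 103 had at least 3 Fabp6 UMIs (24, 9, 49 and 21 by library). These held less Lct, at 6.08, 0, 0 and 2.84 CPM (3, 0, 0 and 1 UMIs) against 17.3, 15.5, 4.21 and 8.76 CPM in the other cells, and less Alpi, at 36.5, 16.8, 30.4 and 51.1 CPM against 81.0, 101.4, 58.5 and 70.1. They held more Mgam, at 306, 328, 434 and 560 CPM against 206, 220, 305 and 233. Each of these differences had the same direction within all 4 libraries. Dpp4 (75.0, 71.5, 115 and 150.5 CPM against 57.3, 54.1, 66.3 and 64.7) and Enpep (205, 231, 295 and 315 against 126, 140, 169 and 122) were also higher in each. Fabp6 itself was at 536, 1474, 986 and 1006 CPM at gate scores of 0.5 to 1. At 2 and above it was at 2.45, 1.83, 978 and 282. In 0D the split by Fabp6 thus also divides cells by gate score, with which Lct and Alpi rose. The part of the gate score in these differences was not tested.

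With library as a block, edgeR called 5 of 9 members, where 15.3% of 9615 genes passed, 7.53% higher and 7.73% lower in cells with Fabp6. Mgam was higher by 0.76 ± 0.11 (adjusted p = 2.64e-05), Dpp4 by 0.78 ± 0.15 (0.000426) and Enpep by 0.93 ± 0.11 (1.25e-06). Alpi changed by -1.05 ± 0.20 (0.00049) and Lct by -2.26 ± 0.59 (0.00945), the latter resting on 4 UMIs in the cells with Fabp6, whose counts of 0 allow up to 12.6 CPM in 0D-2 and 2.94 in 2D-1. All 5 also passed with each library left out in turn. Sis was level at -0.01 ± 0.15 (adjusted p = 0.972), and Anpep (0.24), Ace (0.54) and Treh (-0.69) did not pass. Cells without Fabp6 alone gave a 2D against 0D change of -1.47 for Lct and 0.22 for Dpp4, neither called.

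**Figure D5:**
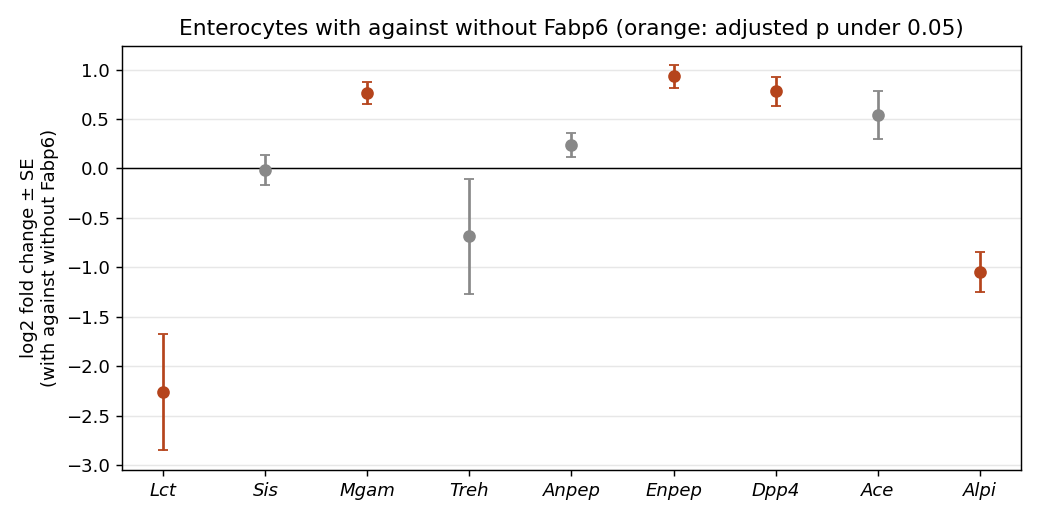
The log2 fold change with its SE (vertical axis) of the 9 enzymes (horizontal axis) between non-dividing enterocytes with and without Fabp6, orange where the adjusted p is under 0.05. Lct and Alpi lie below 0, and Mgam, Enpep and Dpp4 above it.

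Outside non-dividing enterocytes, no member passed between 2D and 0D in any of 9 other classes. Of 81 gene and class pairs 55 had enough counts to test, 0 passed by edgeR (smallest adjusted p = 0.344) and 9 had an unadjusted p under 0.05, as did 8.88% of all gene and class pairs tested. DESeq2 was not run there. Over all genes the share that passed was 0.132% in dividing enterocytes, 0.0515% and 0.12% in dividing and non-dividing stem cells, 0.0248% in dividing cells of no lineage, 0.0939% and 0% in dividing and non-dividing goblet cells, 0.0177% in Paneth, 0.194% in enteroendocrine and 0.419% in tuft cells. In dividing enterocytes 2 of the 8 members tested did not overlap, against 39% of genes tested. These were Mgam (117 and 130 CPM in 0D against 193 and 142 in 2D) and Alpi (39.8 and 46.4 against 34.6 and 33.5). Lct, with too few counts to test there (19 UMIs), was at 1.13, 1.18, 0.146 and 0.424 CPM. The difference of the 2D change between non-dividing and dividing enterocytes was called for 0 of 9 by edgeR, where 0.363% of 11022 genes were. Its smallest member p was that of Anpep (-0.31 ± 0.08, adjusted p = 0.17).

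Other genes of the brush border were described in the same non-dividing enterocytes. Of 12 tested hydrolases among 14 listed, 8 lay above 0 and 1 passed, Nt5e (ecto-5′-nucleotidase), at 0.111, 0.355, 4.12 and 7.52 CPM (log2 4.53 ± 0.53, edgeR adjusted p = 0.048). Asah2 (neutral ceramidase) was at -0.62 and Ggt1 (gamma-glutamyltransferase) at 0.83, neither called. Of 10 transporters 0 passed, with the peptide carrier Slc15a1 at 0.85, the phosphate carrier Slc34a2 at 1.13 and the amino acid carrier Slc6a19 at 0.48. Of 10 microvillus structure genes 0 passed, with the actin regulator Eps8 at 0.15, ezrin (Ezr) at 0.14 and the microvillus scaffold Ush1c at -0.12. Of 14 transcription factors 0 passed, with Creb3l3 at -0.68, Klf4 at 0.81 and Cdx2 at -0.23. The medians of these 4 lists were 0.35, 0.03, 0.04 and 0.03, and that of all genes 0.00306.

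Whether members were seen in the same cells was counted in 3033 non-dividing enterocytes thinned to 3000 UMIs. In 35 of 36 pairs, the share of cells with one gene was higher among cells with the other than among cells without it. Of cells with Lct 85.5% also had Sis, against 60.5% of cells without Lct, and 35.5% against 18.5% had Alpi. Other pairs were close to level, as Alpi with Mgam (45.6% against 44.1%) and Treh with Enpep (31.7% against 31.4%), and Treh was in 1.29% of cells with Sis against 1.45% without. Sparse pairs rest on few cells, such as 6 with both Ace and Treh. These shares are pooled over libraries and cells of all maturities, and are given as a description. Across 40 profiles (10 classes in 4 libraries), the genes whose levels followed the members' mean most closely among 9632 were Gnpda1 (Pearson r = 0.972), Ces2c (0.963), Exoc3l4 (0.958), Srxn1 (0.957) and Mpp1 (0.957). The profiles share libraries and depth, and these genes are named for likeness only.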

How the data were processed

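Crypt cells of mouse small intestine were profiled with 10x Genomics libraries. Each library came as whole-number UMI counts per gene and barcode, deposited by the authors. Per the submitters' processing notes these were made with Cell Ranger 2.1.1 on mm10, while per the file headers cellranger 7.0.0 wrote them, and intron counting is not given in the sources used here. Barcodes were dropped below 500 genes or above 20% mitochondrial UMIs. Cells were gated by marker scores and no deposited annotation was used, so class names are rebuilt. Doublets were scored with Scrublet and kept, and leaving out cells above 1 common score was an alternative.

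Raw counts were summed per library and class and tested with edgeR 4.0.16 (filterByExpr, TMM, quasi-likelihood, Benjamini-Hochberg over all genes tested, threshold 0.05). DESeq2 1.42.0 was an alternative, as were other gates, filters and scalings and leaving out each library. An exact permutation test of 2 against 2 libraries cannot go below p = 0.333, so none is given. Counts were also simulated with the enterocyte libraries' means (11441 genes) and a common spread (dispersion) for all genes and both groups. On these the test recovered 78.6% of 98 genes changed 2-fold and 98% of 98 changed 4-fold. It also made 3 false calls. In the measured enterocyte libraries, the log2 difference between the 2 libraries of a group had a root mean square of 0.271 in 0D and 0.465 in 2D. Recovery in those measured counts was not tested. The 9 genes, the lists and the markers were chosen with earlier results of these data known. The genes named are the 9 members, up to 3 genes of smallest p per list and the 5 genes most like the members' mean profile. Fabp6, Akp3 and Alppl2 were named beside them after their values were seen. Upstream windows are RefSeq's. Gene loci are from the GENCODE annotation, whose gene identifiers matched those of all 9 symbols. Software was Python 3.11.15, scanpy 1.11.5 and R 4.3.3.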

Additional observations from a re-analysis of the deposited data

Results flagged for a closer look

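Mgam moved in opposite directions in 2 classes. It was higher in both 2D libraries in non-dividing enterocytes. In enteroendocrine cells it was at 64.6, 56.4, 48.9 and 36.9 CPM in the 2 libraries of 0D and then of 2D, lower in both. Of all genes tested, 24% were likewise higher in both 2D libraries in non-dividing enterocytes, and 17.1% lower in both in enteroendocrine cells. The log2 difference of the 2 changes was 0.89 ± 0.14 (SE), with an edgeR adjusted p = 0.0971, so it did not pass.

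Dpp4 was higher in both 2D libraries in non-dividing enterocytes. It was lower in both in non-dividing stem cells (48.4 and 59.4 against 40.7 and 48.2 CPM) and in tuft cells (34.0 and 26.0 against 19.6 and 25.1). The nearest libraries of the groups were close, at 48.4 and 48.2 CPM in stem and 26.0 and 25.1 in tuft cells. Of all genes tested, 14.3% were lower in both 2D libraries in non-dividing stem cells and 19.3% in tuft cells. The differences of the changes were 0.65 ± 0.17 (edgeR adjusted p = 0.177) and 0.73 ± 0.26 (adjusted p = 0.443), and neither passed. These class-by-group tests were chosen after the data were seen.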

How the results depend on the processing

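With 2 libraries a group, calls between 2D and 0D depended on the setting. In all cells 0 genes passed by edgeR, against 758 by DESeq2, and leaving out 1 library gave 0 to 4045. In non-dividing enterocytes 17 passed, against 106 by DESeq2, 96 with no filter on low counts, 28 at 10% mitochondrial UMIs, 3 without cells of high doublet score, 0 with the looser gate, 10 with Leiden clusters, and 0 to 1672 with 1 library left out. Settings chosen after seeing the data gave 27 with ungated Fabp6 cells added, 2 without Fabp6 cells, and 8, 36 and 53 at scores of 0.5 to 1, 1 to 2 and 2 and above. Class contrasts kept 81 of 81 calls under every alternative run. The Fabp6 split called 1467 genes, and 1005 to 1398 with 1 library left out. The class-by-group term called 40 genes, and 18 to 145 with 1 library left out. The cause of these shifts was not tested.

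Some members changed sign. Between enteroendocrine and goblet cells, library totals turned Mgam from a called -0.73 to 0.041 (edgeR adjusted p = 0.782) and Alpi to 0.46, and Lct was at -0.14 with the stricter gate and ranged from -0.60 to 0.30 with 1 library left out. In all cells at 10% mitochondrial UMIs, Anpep was at 0.015, Mgam at 0.012 and Dpp4 at 0.014. With 1 library left out, Sis ranged from -0.85 to 0.071, Anpep from -0.84 to 0.43, Mgam from -0.48 to 0.34, Dpp4 from -0.12 to 0.055, Ace from -0.041 to 0.30 and Enpep from -0.86 to 0.41. Within enterocytes Treh was at 0.00795 by library totals, 0.10 with the stricter gate, 0.060 without Fabp6 cells, and 0.26 and 0.57 at scores of 1 to 2 and 2 and above. Sis was at 0.38, 0.23 and 0.060 in the 3 score ranges and Ace at -0.085 at 0.5 to 1. With 1 library left out, Sis ranged from -0.36 to 0.090, Anpep from -0.27 to 0.33, Enpep from -0.020 to 0.39 and Treh from -0.21 to 0.12. Likewise, in the Fabp6 split Sis ranged from -0.34 to 0.19, and in the class-by-group term Sis ranged from -0.33 to 0.053, Ace from -0.12 to 0.39 and Enpep from -0.21 to 0.012.

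Libraries of the same replicate number shared little deviation from their group means (correlation 0.0651 in all cells and -0.0631 in enterocytes). With 2 libraries a group this cannot tell whether the libraries were paired. With the replicate number as a block, 0 genes passed in all cells and 17 in enterocytes, Lct was at -1.52 (edgeR adjusted p = 0.284), and no member's call changed. Counts of 54 and 55 Lct UMIs in 2D limit its precision.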
